A study of Mus musculus with 6 samples.

Results

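The connexin genes Gja1, Gja4, Gjb2, Gjb5 and Gjc1 were followed through the first step of mouse pluripotent cell differentiation, from embryonic stem cells (ESCs) to epiblast-like cells (EpiLCs). They are 5 of the 24736 genes of the expression table and 5 of the 16 connexin genes described here, and all were found by symbol. They were chosen by their values in this same comparison, so their levels and fold changes are given as a description, without p-values. The mRNA of Gja1 was 1.77 times as abundant in EpiLCs as in ESCs, and the mRNA of Gjc1, Gjb5, Gjb2 and Gja4 was less abundant, by 3.28-fold for Gjc1, 5.01-fold for Gjb5 and 2.94-fold for Gjb2, or 1.95-fold for Gjb2 without 1 ESC library, with few counts for Gja4. Summed over the 5 genes, mRNA stood at 336 ± 20.7 TPM (transcript abundance scaled for transcript length and library) in the ESC libraries and 430 ± 20.6 TPM in the EpiLC libraries (SD, n = 3 each), while the share of Gja1 in this sum went from 66.6% to 92.5%.

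Connexins are membrane proteins that assemble into rings in the plasma membrane. A ring docks with its counterpart on the neighbouring cell to form a gap junction channel, through which ions and small metabolites pass directly from cell to cell. Members of the family differ in the partners they can dock with, in conductance and in the phosphorylation sites of their cytoplasmic tails. Pluripotent cells in culture and in the early embryo are coupled by gap junctions, and Gja1 is the connexin most often studied there.

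The study asked how the amount of the transcription factor SOX2 changes what WNT signalling does in epiblast-derived progenitors. Both groups are wild type and come from a single line, the XY HM1 TetON ESC line, with 3 biological replicates each by their labels. ESCs (0 h, undifferentiated) were grown on mitotically inactivated embryonic fibroblasts with 10% serum and 1000 U/ml of the cytokine LIF, a factor that sustains naive pluripotency. EpiLCs were sampled at 48 h in serum-free FL medium, which contains bFGF at 10 ng/ml and LGK974 at 5 µM, an inhibitor that blocks WNT secretion, after the cells had been separated from the fibroblasts by adhesion. Serum, LIF, fibroblasts, bFGF, LGK974 and time therefore change together between the groups, and their effects cannot be told apart. Polyadenylated RNA was read as strand-specific single reads of 76 bases.

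Libraries held 16967741 to 28521848 expected counts in ESCs and 30683164 to 35096210 in EpiLCs, so that 3 counts corresponded to 0.0855 to 0.177 CPM (counts scaled to library size). Markers matched the labels. All 7 naive pluripotency markers were lower and all 6 formative markers higher in EpiLCs, with Nanog at 324 ± 42.4 and 12.1 ± 9.08 TPM and Pou3f1 at 9.80 ± 1.49 and 172 ± 19.2 TPM, while Pou5f1, which both states express, stood at 1335 ± 91.8 and 1451 ± 112 TPM (SD, n = 3 each). ESC replicate 2 stood apart in fibroblast markers: the 14 markers summed to 315, 1557 and 112 TPM in ESC replicates 1, 2 and 3 and to 89.1 to 96.9 TPM in EpiLCs. Each of the 14 was highest in ESC replicate 2, none was at 0 throughout a group, and Col1a1 read 90.5, 489 and 28.3 TPM over the ESC libraries. Values without this library are also given for Gja1, Gjb5, Gjb2 and Gja4, and for some but not all of the other genes that it moved. Summed markers of primitive endoderm were also higher in ESCs, at 39.5 to 72.9 TPM against 10.7 to 11.2 TPM in EpiLCs (5 of 7 genes lower and 0 higher by edgeR's quasi-likelihood test at an adjusted p of 0.05), as were those of trophoblast, at 320 to 588 TPM against 183 to 257 TPM (5 of 9 tested genes lower and 1 higher), while 22.8% of all genes tested were lower and 22.6% higher. None of these markers was at 0 throughout a group. Krt8 and Krt18 made up most of the trophoblast sums, and their ranges overlapped between the groups, with 112 to 275 and 94.4 to 203 TPM in ESCs against 75.7 to 120 and 77.0 to 113 TPM in EpiLCs. In bulk RNA, fewer cells of a type and less RNA per cell cannot be told apart, and the part of these cells in the connexin values was not tested.

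The 5 genes lie on 4 chromosomes of the mouse genome (mm10, GRCm38). In RefSeq, Gja1 spans chr10:56377300-56390419, Gjc1 chr11:102799477-102819686, Gjb2 chr14:57098602-57104702, Gja4 chr4:127311420-127314039 and Gjb5 chr4:127354809-127358164. In the longest GENCODE coding transcript of each, the whole protein is encoded by 1 exon, which follows 1 non-coding exon, or 2 in Gjc1. No other GENCODE gene overlaps these transcripts, and all of their counts were whole numbers, so no fraction of a shared read was assigned to them. Translation of these transcripts gave 382 residues for Gja1, 333 for Gja4, 226 for Gjb2, 271 for Gjb5 and 396 for Gjc1.

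Docking involves both extracellular loops, which are well conserved in the family. The first loop was located by its cysteine pattern, C, 6 residues, C, 3 residues, C, which occurred once in each protein, at codons 54 to 65 of Gja1 and Gja4 and 53 to 64 of Gjb2, Gjb5 and Gjc1. The 36 coding bases are printed 5′ to 3′ for all 5 genes, with the cysteine codons in capitals, because they show how close members with opposite changes are in the shared part of the protein.
Gja1 (chr10:56387706-56387741, plus strand): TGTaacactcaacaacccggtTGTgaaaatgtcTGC
Gjc1 (chr11:102800984-102801019, minus strand): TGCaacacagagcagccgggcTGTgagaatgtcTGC
Gja4 (chr4:127312774-127312809, minus strand): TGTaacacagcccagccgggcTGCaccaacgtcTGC
Gjb2 (chr14:57100558-57100593, minus strand): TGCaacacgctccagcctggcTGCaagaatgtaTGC
Gjb5 (chr4:127356158-127356193, minus strand): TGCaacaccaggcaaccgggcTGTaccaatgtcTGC

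Cysteine was encoded by TGT or TGC, and the cysteine positions were the same in all 5. Against Gja1, 24 of 36 bases were identical in Gja4, 25 in Gjb2, 26 in Gjb5 and 28 in Gjc1, and 10 of 12 residues were identical in Gja4, Gjb2 and Gjb5 and 11 of 12 in Gjc1. As a percentage of the shorter protein, identity with Gja1 was 38.0% for Gjc1, 41.0% for Gjb5, 50.4% for Gjb2 and 51.1% for Gja4. The shorter length differs between these pairs, so the percentages do not rank similarity over the whole protein. In number, Gjc1 shared 145 residues with Gja1, against 111 in Gjb5, 114 in Gjb2 and 170 in Gja4. Gjb2 and Gjb5, both of the beta group, shared 50.4%. A second loop pattern, C, 4 residues, C, 5 residues, C, was found downstream in all 5.

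Gja1 encodes connexin Cx43, the most widely expressed connexin. Among the connexins reported here it was the most abundant in every library. Its mRNA level was 243, 235 and 196 TPM in ESC replicates 1, 2 and 3 and 420, 380 and 393 TPM in EpiLC replicates 1, 2 and 3. Every EpiLC library lay above every ESC library. Means were 225 ± 25.3 and 398 ± 20.3 TPM (SD, n = 3 each), and the log2 fold change from ESC to EpiLC was 0.77 (SE 0.09), fitted on 7802, 5776 and 8173 counts in ESCs and 21392, 18587 and 17559 in EpiLCs. Already in ESCs, 95.1% of the 14468 genes tested had a lower mean level than Gja1, and in EpiLCs 97.4% did. Gja1 was not highest in ESC replicate 2, the library with the most fibroblast RNA, but was lowest in ESC replicate 3, the ESC library with the least. Its log2 fold change was 0.81 (SE 0.10) without ESC replicate 2 and 0.70 (SE 0.07) without ESC replicate 3. The part of fibroblast RNA in its level was not tested.

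Gjc1 encodes Cx45, a connexin of the gamma group known from the developing heart and vasculature. It came next to Gja1 among the reported connexins in both states. It read 92.1, 84.8 and 96.0 TPM in ESCs and 27.8, 25.7 and 29.7 TPM in EpiLCs, a pair of narrow and well separated ranges. The means of 90.9 ± 5.69 and 27.7 ± 2.02 TPM (SD, n = 3 each) correspond to 3.28-fold lower mRNA in EpiLCs, with a log2 fold change of -1.76 (SE 0.09). Its coefficient of variation between replicates was the smallest of the 5 genes in ESCs, at 6.26%, and was 7.27% in EpiLCs. Gjc1 went from a level above 86.9% of tested genes to one above 64.1%.

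**Figure D1:**
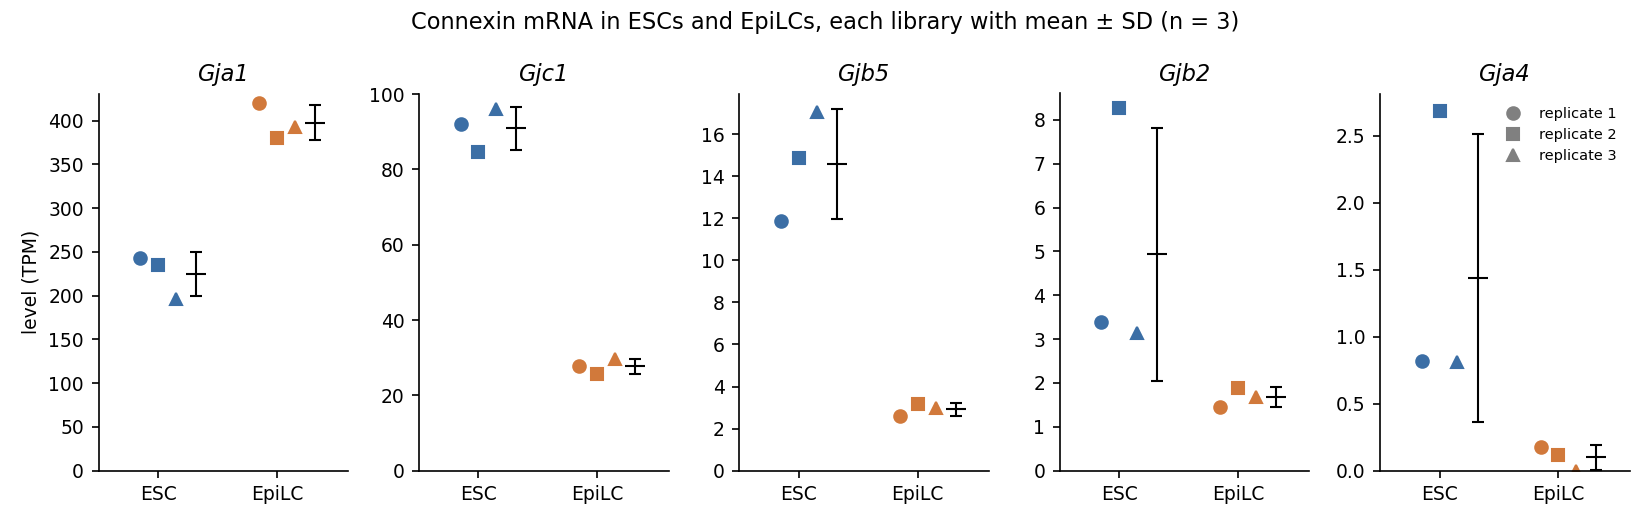
mRNA level in TPM (linear axes from 0, scaled per gene) of the 5 connexins in ESCs (blue) and EpiLCs (orange), with 1 point per library, its shape giving the replicate number, and the mean ± SD (n = 3) beside it. Gja1 lies between 196 and 243 TPM in ESCs and between 380 and 420 TPM in EpiLCs, and the other genes lie lower in every EpiLC library than in any ESC library, with ESC replicate 2 (square) far above the other ESC libraries for Gjb2 and Gja4.

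The beta connexins Gjb5 and Gjb2 were expressed at lower levels. Gjb5 encodes Cx31.1, which is found mainly in stratified epithelia and in trophoblast. It stood at 11.9, 14.8 and 17.1 TPM in ESCs and at 2.59, 3.19 and 2.96 TPM in EpiLCs. No EpiLC library came near the lowest ESC library. The means of 14.6 ± 2.61 and 2.91 ± 0.303 TPM (SD, n = 3 each) differed 5.01-fold, and the log2 fold change was -2.38 (SE 0.20), which rests on 784 counts over the ESC libraries and 226 over the EpiLC libraries. Without ESC replicate 2 it was -2.37 (SE 0.22).

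Gjb2 encodes Cx26, a connexin of the cochlea, liver and skin. Its ESC libraries differed among themselves, with 3.40, 8.26 and 3.15 TPM, and its EpiLC libraries lay at 1.45, 1.89 and 1.69 TPM. The groups did not overlap, but the ESC mean of 4.94 ± 2.88 TPM has a coefficient of variation of 58.4%, against 13.1% for the EpiLC mean of 1.68 ± 0.220 TPM (SD, n = 3 each). ESC replicate 2, the library with 1557 TPM of fibroblast markers, held the highest value. The log2 fold change was -1.59 (SE 0.40) with this library and -1.02 (SE 0.21) without it, or 2.94-fold against 1.95-fold on the TPM scale. Fibroblast markers and Gjb2 shared their order over the ESC libraries, replicate 2 above 1 above 3, and the part of fibroblast RNA in its level was not tested.

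Gja4 encodes Cx37, known from endothelium and from the contact between oocyte and granulosa cells. It was barely expressed. It gave 14, 35 and 18 counts in ESCs (0.82, 2.68 and 0.81 TPM) and 5, 3 and 0 counts in EpiLCs (0.18, 0.12 and 0 TPM). Again ESC replicate 2 was the highest. Over all libraries, 67 counts in ESCs and 8 in EpiLCs gave a depth-corrected ratio of 12.4, with an exact 95% interval of 5.92 to 29.8 that covers counting error only. Its fitted log2 fold change was -3.73 (SE 0.84), and -2.97 (SE 0.71) without ESC replicate 2. A gene was kept for the fit when at least 3 libraries reached 0.338 CPM, and Gja4 was kept through its ESC libraries alone, whereas the other 4 genes passed in all 6 libraries.

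Of the 5 genes, 4 had lower and 1 had higher values in all EpiLC libraries than in all ESC libraries. Among all genes tested, 25.6% had TPM ranges that did not overlap and were lower in EpiLCs and 33.8% had such ranges and were higher. As the contrast itself chose the 5 genes, nothing is read from their count.

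Levels in TPM are scaled for transcript length and so allow the 5 genes to be ranked. In both states the order was Gja1, Gjc1, Gjb5, Gjb2 and Gja4. Neighbours in this order did not overlap: in ESCs the lowest Gjb5 value, 11.9 TPM, lay above the highest Gjb2 value, 8.26 TPM, and the lowest Gjb2 value, 3.15 TPM, lay above the highest Gja4 value, 2.68 TPM. In EpiLCs the distance was again small between Gjb5, at 2.59 TPM or more, and Gjb2, at 1.89 TPM or less.

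The distance between the first and the second gene in this order widened. The ratio of Gja1 to Gjc1 was 2.64, 2.77 and 2.04 in the ESC libraries and 15.1, 14.8 and 13.2 in the EpiLC libraries. That of Gja1 to Gjb5 went from 15.9 ± 4.50 to 138 ± 22.0 (SD, n = 3 each). Both ratios combine a higher numerator with a lower denominator.

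The sum over the 5 genes, which is not a total of the connexin family, was 351, 346 and 313 TPM in ESCs and 452, 411 and 427 TPM in EpiLCs, and these ranges did not overlap. Without Gja1 the other 4 genes summed to 112 ± 4.59 TPM in the ESC libraries and to 32.4 ± 1.78 TPM in the EpiLC libraries (SD, n = 3 each). Gja1 made up 69.2%, 68.0% and 62.6% of the sum in the ESC libraries and 92.9%, 92.5% and 92.0% in the EpiLC libraries. Gjc1 went from 27.1 ± 3.19% to 6.45 ± 0.435%, Gjb5 from 4.38 ± 1.04% to 0.681 ± 0.102%, Gjb2 from 1.46 ± 0.809% to 0.392 ± 0.0696% and Gja4 from 0.423 ± 0.306% to 0.0230 ± 0.0206% (SD, n = 3 each). Without ESC replicate 2 the mean ESC shares were 0.246% for Gja4 and 0.988% for Gjb2.

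**Figure D2:**
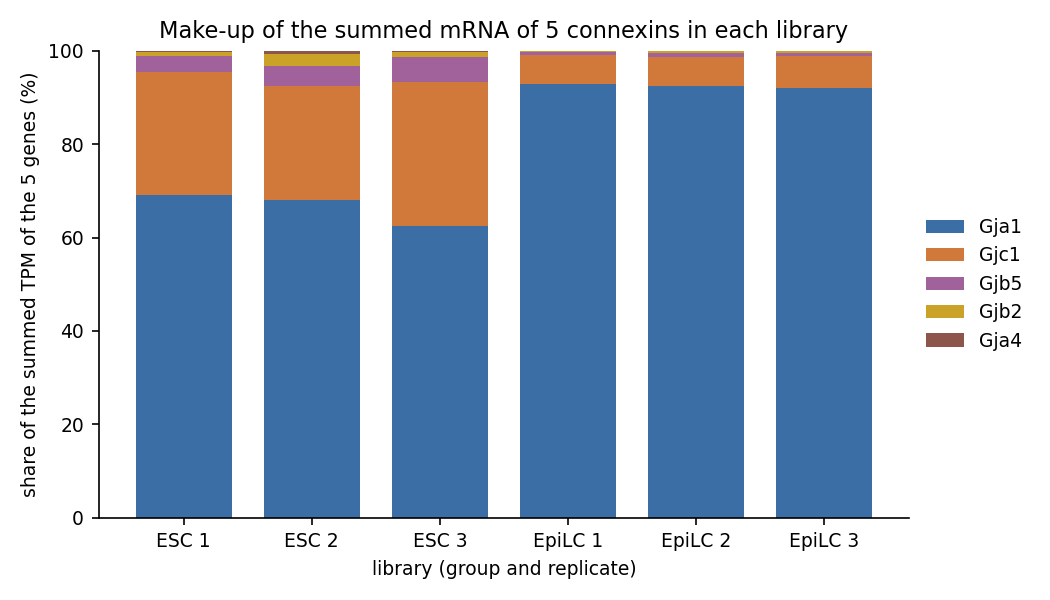
Share of each gene in the summed TPM of the 5 connexins (vertical axis, percent) for each library (horizontal axis, 1 stacked bar per library). Gja1 (blue) fills 62.6–69.2% of the bar in the 3 ESC libraries and 92.0–92.9% in the 3 EpiLC libraries, and Gjc1 (orange) fills most of the rest.

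A further 11 connexins were taken by family membership, with earlier results of these data known, and they are not the whole family. Adjusted p-values here and below are those of edgeR's quasi-likelihood test with Benjamini-Hochberg adjustment over all genes tested. Of all genes tested, 22.8% were lower, 22.6% were higher and 45.4% passed the threshold of 0.05 in either direction. Of the 11 genes, 3 had enough counts to be fitted. Gjb1 reached the filter in ESC libraries alone and Gjd2 in EpiLC libraries alone, so each was kept only through the group where it was high. Values of both are therefore given without a p-value.

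Gjb1, the main liver connexin, had its groups apart. It read 0.50, 0.73 and 1.31 TPM in ESCs and 0, 0 and 0.09 TPM in EpiLCs, from 43 counts over the ESC libraries and 2 over the EpiLC libraries (ratio 31.7, 95% interval 8.26 to 270.3). The interval covers counting error only, and both EpiLC counts came from EpiLC replicate 3, so that without it no EpiLC count was left.

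Gjd2, the principal connexin of neurons, read 0.20, 0.09 and 0.05 TPM in ESCs and 0.49, 0.64 and 0.34 TPM in EpiLCs. These levels rest on 10 and 66 counts (ratio of EpiLC to ESC 4.47, 95% interval 2.29 to 9.76, counting error only). The fitted log2 fold change was 2.05 (SE 0.52) and ran from 1.64 to 2.76 over the fits that left out 1 library, the highest without ESC replicate 1. Gja3, a lens connexin, read 0.11, 1.00 and 0.11 TPM in ESCs and 0.39, 0.29 and 0.37 TPM in EpiLCs, with its highest value in ESC replicate 2. Its log2 fold change was -0.14 (SE 0.83, adjusted p = 0.905), and 1.57 (SE 0.46) without that library. A further 8 connexins (Gja5, Gja6, Gja10, Gjb6, Gjc3, Gjd3, Gjd4 and Gje1) had too few counts, with at most 13 over the 3 libraries of a group, and Gje1 had none in any library.

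**Figure D3:**
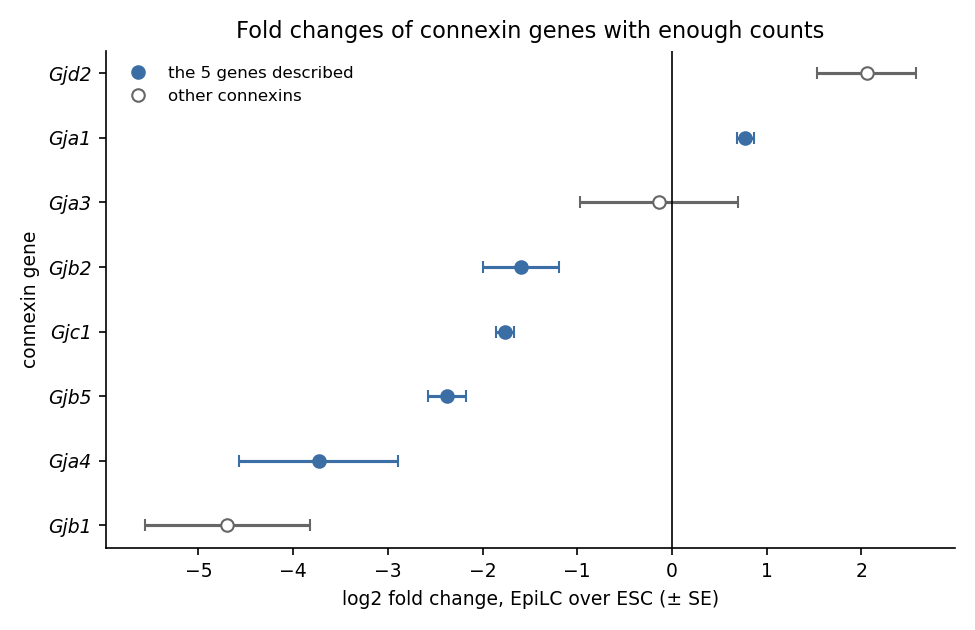
Log2 fold change from ESC to EpiLC with its standard error (horizontal axis) for 8 connexin genes with enough counts, ordered by value; filled points are the 5 genes described and open points 3 other connexins. Gjd2 and Gja1 lie to the right of 0, Gja3 spans it, and the other 5 genes lie to the left, with Gjb1 fitted on 2 counts in EpiLCs.

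Position was not used to choose the genes. Gja4 and Gjb5 lie 40.8 kb apart on chromosome 4, on the same strand. Both had lower values in every EpiLC library than in any ESC library, although their mean ESC levels were 1.44 TPM (Gja4, or 0.815 TPM without ESC replicate 2) and 14.6 TPM (Gjb5).

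Genes to either side of this pair were measured too. Dlgap3, a synaptic scaffold gene 74.4 kb from Gja4, fell from 22.6 ± 5.42 to 6.55 ± 1.17 TPM (log2 fold change -1.84, SE 0.22, adjusted p = 8.83e-04; SD, n = 3 each). Tmem35b, farther out, had a log2 fold change of -0.32 (SE 0.42, adjusted p = 0.558). On the other side, CK137956 was 569 kb from Gjb5 and had too few counts, as had Csmd2os, and Csmd2, with 27 counts over the ESC and 91 over the EpiLC libraries, had a log2 fold change of 1.03 (SE 0.67, adjusted p = 0.242). Without ESC replicate 2, which held its highest ESC value (0.16 TPM), that of Csmd2 was 2.15 (SE 0.49), given without a p-value because few ESC counts were left. Without ESC replicate 1 it was 0.52 (SE 0.55, adjusted p = 0.489).

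Gjb2 also has connexin neighbours, Gjb6 at 18.6 kb and Gja3 at 40.6 kb, but neither was expressed at more than 1 TPM in any library. Of the other genes nearby, B020004C17Rik at 79.6 kb had no counts. Farther out lay Zmym2, which was higher in EpiLCs (log2 fold change 0.40, SE 0.10, adjusted p = 0.0159), Cryl1, which was lower (-0.53, SE 0.18, adjusted p = 0.0467), and Ift88 (-0.36, SE 0.14, adjusted p = 0.0667). Around Gja1, whose nearest gene reported here lay 148 kb away, Msl3l2 was higher (1.03, SE 0.24, adjusted p = 0.0125) and Tbc1d32 lower (-0.49, SE 0.15, adjusted p = 0.0313). Hsf2 (-0.17, SE 0.09, adjusted p = 0.164) and Serinc1 (-0.49, SE 0.20, adjusted p = 0.0861) did not pass, and Gm16998 and 4930467K11Rik had too few counts. Around Gjc1, which was lower, Adam11 and Ccdc43 were higher (1.31, SE 0.19, adjusted p = 0.00200 and 0.47, SE 0.08, adjusted p = 0.00457). Meioc (0.31, SE 0.32, adjusted p = 0.462), Eftud2 (-0.16, SE 0.06, adjusted p = 0.0777) and Ccdc103 (-0.41, SE 0.34, adjusted p = 0.354) did not pass there, and Higd1b had no counts. Of 21 neighbours that are not connexins, 15 were tested, 4 of them were higher and 3 lower, near the 22.6% and 22.8% of all genes tested, and their median log2 fold change was -0.17. Of the 6 fits that left out 1 library, Tbc1d32 passed only without ESC replicate 2 (otherwise adjusted p = 0.0709 to 0.111) and Cryl1 only without ESC replicate 3 (otherwise 0.0534 to 0.164), while Zmym2 failed without EpiLC replicate 1 or 2 (0.0537 to 0.0559) and Msl3l2 failed without EpiLC replicate 1 (0.0567). Conversely, Ift88 (adjusted p = 0.0385) and Eftud2 (0.0201) passed without ESC replicate 2 and Serinc1 (0.0135) without ESC replicate 3. Log2 fold changes without ESC replicate 2 were 0.03 for Meioc (adjusted p = 0.919) and -0.23 for Serinc1 (adjusted p = 0.140).

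RefSeq promoter sequences, from 250 bases before to 50 bases after the start of a transcript (GRCm38.p6), were available for Gja1, Gja4, Gjb2 and Gjb5. The windows of Gja1, the gene that was higher, and of Gja4 and Gjb5, the pair on chromosome 4 that was lower, are printed 5′ to 3′ on the coding strand, with every motif found in capitals.
Gja1 (chr10:56377050-56377349, plus strand): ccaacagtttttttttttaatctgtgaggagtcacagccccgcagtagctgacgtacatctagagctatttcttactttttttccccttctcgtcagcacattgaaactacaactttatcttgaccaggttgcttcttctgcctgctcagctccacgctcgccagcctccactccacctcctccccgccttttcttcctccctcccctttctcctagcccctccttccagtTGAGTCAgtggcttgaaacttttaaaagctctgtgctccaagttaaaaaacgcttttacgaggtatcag
Gja4 (chr4:127313990-127314289, minus strand): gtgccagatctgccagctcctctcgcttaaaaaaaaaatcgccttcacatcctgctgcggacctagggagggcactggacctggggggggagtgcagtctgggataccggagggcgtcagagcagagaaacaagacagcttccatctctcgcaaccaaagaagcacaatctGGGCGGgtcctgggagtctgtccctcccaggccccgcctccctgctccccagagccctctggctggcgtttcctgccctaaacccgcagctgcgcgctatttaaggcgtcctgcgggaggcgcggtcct
Gjb5 (chr4:127358115-127358414, minus strand): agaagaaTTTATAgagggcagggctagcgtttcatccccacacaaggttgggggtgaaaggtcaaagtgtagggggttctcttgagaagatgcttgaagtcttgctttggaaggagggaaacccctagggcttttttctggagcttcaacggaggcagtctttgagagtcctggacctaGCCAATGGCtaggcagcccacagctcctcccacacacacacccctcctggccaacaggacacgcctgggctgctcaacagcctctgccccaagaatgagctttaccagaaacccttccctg

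The motifs searched on both strands were AP-1 (TGANTCA), the TATA box (TATAAA), the GC box (GGGCGG), the octamer of POU factors (ATGCAAAT), a SOX motif (CTTTGT) and AP-2 (GCCNNNGGC). They were found in 7.81%, 13.6%, 35.7%, 1.74%, 18.7% and 16.6% of 32851 promoter windows of the same length, in that order. The window of Gja1 held AP-1 at base -19 from the start, that of Gja4 a GC box at -79, and that of Gjb5 AP-2 at -71 and a TATA box on the opposite strand at -243. Gjb2 had GC boxes at -211 and -126, the latter overlapping AP-2 at -124. Neither the octamer nor the SOX motif occurred in these 4 windows. CpG dinucleotides numbered 27 in Gjb2, 16 in Gja4, 8 in Gja1 and 3 in Gjb5, with a median of 7 over all windows. A match in these letters is a description of the window and not a binding site.

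For each member that averaged 1 CPM or more, the genes most like it were taken as those with the highest Pearson correlation of log2 CPM over the 6 libraries. As the 6 libraries form the 2 groups, these values mostly repeat the difference between groups and are given without a test. Gja1 was followed most closely by Csk (r = 0.999), which encodes the kinase that inactivates SRC family kinases, Zfp12 and Ctr9, and 50 of 9202 genes reached 0.99. Gjc1 was followed by Dnajb9 (r = 0.9996), Rasgrp1 and the naive pluripotency factor Klf2, with 124 genes at 0.99 or above, and Gjb5 by the retinoic acid receptor gene Rara (r = 0.9997), Gaa and the naive marker Tcl1, with 151. For Gjb2 only 3 genes reached 0.99, namely Fkbp9 (r = 0.993), Rcn3 (r = 0.992) and Tln1. All 3 were highest in ESC replicate 2, as Gjb2 was, the library with the most fibroblast RNA: Fkbp9 read 122, 176 and 123 TPM, Rcn3 54.0, 107 and 47.7 TPM and Tln1 40.1, 61.6 and 37.3 TPM over the ESC libraries, and no correlation is given for the 5 libraries left without it.

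Connexins act with many other proteins, and lists of these were described beside them. Their counts are to be read against the 22.6% of all genes tested that were higher and the 22.8% that were lower, and a count near these shares is no result about a list. Pannexins and LRRC8 proteins build other large-pore channels of similar architecture. Of 7 such genes tested, 4 were higher in EpiLCs and 3 did not pass, and their median log2 fold change was 0.31. Among them, Panx1 rose from 10.3 ± 0.551 to 16.2 ± 0.816 TPM (log2 fold change 0.61, SE 0.11, adjusted p = 0.00545), and Panx2 from 0.257 ± 0.176 to 1.03 ± 0.317 TPM (1.87, SE 0.51, adjusted p = 0.0224; SD, n = 3 each). Lrrc8a, the obligatory subunit of volume-regulated anion channels, rose by 0.31 (SE 0.10, adjusted p = 0.0438) and Lrrc8e by 0.91 (SE 0.25, adjusted p = 0.0243) on the log2 scale. Panx1 passed in each of the 6 fits that left out 1 library. Lrrc8a failed in 4 of them (adjusted p = 0.0630 to 0.129), Lrrc8e in 3 (0.0740 to 0.0879) and Panx2 in 2 (0.0716 to 0.0788). The list held only 1 gene called higher without EpiLC replicate 1 or 2, 2 without ESC replicate 1 and 5 without ESC replicate 2.

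Among scaffold and trafficking partners, which hold connexins at the membrane or bring them there, 1 of 11 genes was higher, 1 was lower and 9 did not pass, and the median log2 fold change was 0.09. Dbn1, encoding the actin-binding protein drebrin, rose from 44.3 ± 13.3 to 87.6 ± 10.6 TPM (log2 fold change 0.94, SE 0.21, adjusted p = 0.0117; SD, n = 3 each). Cav1, encoding caveolin, read 41.8, 160 and 11.5 TPM in ESCs and 2.32, 5.28 and 1.02 TPM in EpiLCs (-4.65, SE 1.06, adjusted p = 0.0116). Its ESC values had the same order as the fibroblast markers, and without ESC replicate 2 its log2 fold change was -3.24 (adjusted p = 0.0106). Without EpiLC replicate 1, Cav1 narrowly missed the threshold (adjusted p = 0.0522). Tjp1, whose product ZO-1 binds the tail of the Gja1 protein, stood at 74.5 ± 4.74 and 86.6 ± 6.61 TPM (SD, n = 3 each) and did not pass (0.16, SE 0.07, adjusted p = 0.105).

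Genes for the internalization and degradation of connexins differed by small amounts where they passed. Of 9 tested, Ubqln4 (0.26, SE 0.07, adjusted p = 0.0280) and Eps15 (0.20, SE 0.07, adjusted p = 0.0464) were higher and Usp8 lower (-0.21, SE 0.07, adjusted p = 0.0343) on the log2 scale, and the median was -0.12. These 3 calls were marginal: of the 6 fits that left out 1 library, Eps15 passed only without ESC replicate 1 (otherwise adjusted p = 0.0793 to 0.133), Usp8 only without ESC replicate 2 (otherwise 0.0816 to 0.130), and Ubqln4 failed without ESC replicate 1 or EpiLC replicate 1 or 2 (0.0791 to 0.103). Nedd4, whose product ubiquitinates the Gja1 protein, was the most abundant of them at 856 ± 69.9 and 785 ± 5.59 TPM (SD, n = 3 each) and did not pass (-0.18, SE 0.07, adjusted p = 0.0826).

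Of 11 kinases that phosphorylate the tail of the Gja1 protein, 2 were higher, 2 were lower and 7 did not pass, with a median log2 fold change of 0.11. Prkaca, the catalytic subunit of protein kinase A, rose from 80.3 ± 1.12 to 115 ± 3.67 TPM (log2 fold change 0.46, SE 0.05, adjusted p = 8.88e-04; SD, n = 3 each), and Mapk7 by 0.20 (SE 0.06, adjusted p = 0.0375). Src, whose product closes Gja1 channels, fell from 27.8 ± 3.56 to 22.3 ± 0.781 TPM (-0.37, SE 0.10, adjusted p = 0.0214; SD, n = 3 each), and Prkce fell as well (-0.78, SE 0.15, adjusted p = 0.00602). Src did not pass in the 3 fits that each left out an EpiLC library (adjusted p = 0.0661 to 0.0732), and Mapk7 failed in all 6 fits that left out a library (0.0512 to 0.122).

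Adherens junctions and desmosomes bring membranes close enough for gap junctions to form. Of 7 genes tested, 1 was higher and 3 were lower, with a median log2 fold change of -0.20. Cdh1, encoding E-cadherin, rose from 302 ± 34.5 to 655 ± 34.0 TPM (log2 fold change 1.06, SE 0.09, adjusted p = 2.99e-04), and Cdh2, encoding N-cadherin, fell from 55.0 ± 21.2 to 22.7 ± 2.11 TPM (-1.32, SE 0.28, adjusted p = 0.00888; SD, n = 3 each). Jup, encoding plakoglobin, was lower (-0.91, SE 0.13, adjusted p = 0.00203), as was Ctnna1, encoding alpha-catenin (-0.42, SE 0.05, adjusted p = 0.00119).

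**Figure D4:**
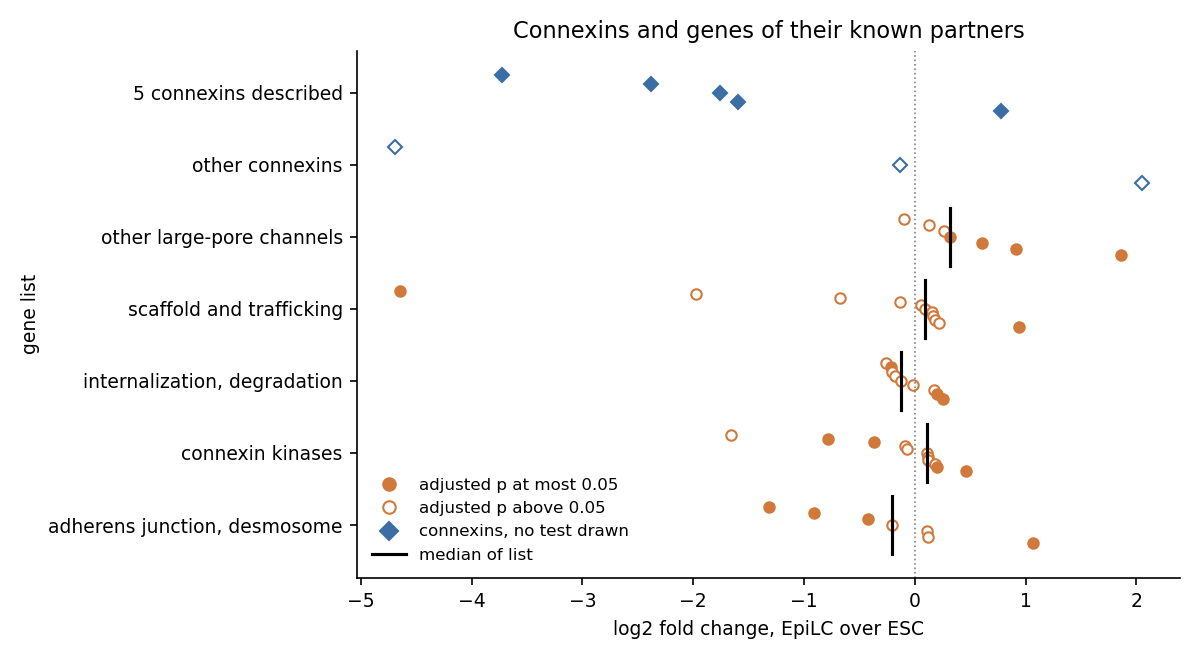
Log2 fold change from ESC to EpiLC (horizontal axis) of each tested gene in 7 lists (vertical axis); filled circles passed an adjusted p of 0.05, open circles did not, diamonds are connexins, drawn without a test or a median (filled for the 5 genes described, open for 3 others), and black lines are medians of the partner lists. These medians lie between -0.20 and 0.31.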

How the data were processed

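Libraries of polyadenylated RNA from 3 ESC and 3 EpiLC samples were analysed. Per the labels and methods, the authors trimmed reads with cutadapt 1.16, mapped them with STAR 2.5.2a and counted them with RSEM 1.3.0 on RefSeq genes of mm10, using strand. The authors deposited expected counts per gene, without normalization and with reads shared between genes divided among them. They also deposited TPM, scaled for transcript length and library.

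Expected counts were rounded, normalized by TMM (factors 0.979 to 1.02) and tested with edgeR 4.0.16 (quasi-likelihood test, filterByExpr, R 4.3.3) in 14468 of 24736 genes, with Benjamini-Hochberg adjustment and a threshold of 0.05. The standard error of a log2 fold change was its size divided by the square root of F. Log2 CPM used a prior count of 2. The fits were tested on simulated counts. Alternatives were DESeq2 1.42.0, which the study also names (1.16.1), other normalizations and filters, limma 3.58.1 on log2(TPM + 1) and log2(TPM + 0.1), a replicate block and leaving out each library.

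Members and gene lists were chosen with earlier results of these data known. The text names the 5 members, 11 other connexins and genes among the 3 on each side of each member that the expression table holds. It also names the changed genes of each partner list (at most 4, by size of change). For likeness it names the 3 genes with the highest correlation among genes averaging 10 CPM or more. Tjp1, Nedd4, Krt8 and Krt18 were added after their values were seen. Positions and promoters are from RefSeq (GRCm38.p6), and transcripts from GENCODE vM21, whose translations stood in for the planned RefSeq proteins. Some connexins and neighbouring genes are not reported here. Promoters were available for 4 of the 5 members. A check of each window against the GENCODE transcript held for Gja4, Gjb2 and Gjb5 and not for Gja1, so the start used for Gja1 rests on RefSeq alone. Culture methods give a longer EpiLC protocol than the 48 h of the labels, which is used here.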

Additional observations from a re-analysis of the deposited data

How the results depend on the processing

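The 5 connexins kept their direction under every alternative in which they were fitted. Leaving out 1 library at a time gave log2 fold changes of 0.70 to 0.82 for Gja1, -1.81 to -1.70 for Gjc1, -2.52 to -2.23 for Gjb5, -1.82 to -1.02 for Gjb2 and -4.46 to -2.97 for Gja4, and the Gjb2 value nearest to 0 came without ESC replicate 2. Limma on log2(TPM + 0.1) gave -2.85 for Gja4, and log2(TPM + 1) gave -1.07 for Gja4 and -1.98 for Gjb5, since a pseudocount shrinks changes of low genes. Gja4 was not fitted under the filter of 10 counts in every sample, which also left 0 other connexins lower and 0 higher, as fewer genes were tested.

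Over all genes, leaving out 1 library gave 2144 to 3572 genes higher and 2100 to 3609 lower, and DESeq2 called 7061 genes in all. Among the other connexins the same 6 fits called 0 to 2 higher and 1 lower, which is no measure of stability: Gjb1, Gjd2 and, without ESC replicate 2, Gja3 were kept by the filter only through the group where they were high. Adherens and desmosome partners stayed at 1 higher and 3 lower in these fits, and the other lists varied. Large-pore channels had 1 to 5 genes higher, and scaffold partners 1 to 2 higher and 0 to 2 lower. Internalization partners had 0 to 2 higher and 0 to 2 lower, and kinases 1 to 2 higher and 1 to 3 lower. Neighbouring genes had 2 to 6 higher and 1 to 4 lower, and the 6 came without ESC replicate 2 and included Csmd2 and Gja3. DESeq2 gave 2 scaffold partners lower and 6 neighbouring genes lower. Both limma fits gave 3 scaffold partners higher, 0 internalization partners lower and 2 adherens or desmosome partners higher. For internalization partners, no filter gave 1 higher and 0 lower, relative log expression normalization 1 higher, and upper-quartile normalization 0 lower. The cause of these shifts was not tested.

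Gja3, which passed no test with all libraries, reversed with limma on log2(TPM + 0.1) (0.30), with the replicate block (0.18) and without ESC replicate 2, with values from -0.63 to 1.57 over the fits that left out 1 library. Over the same fits Tmem35b ran from -0.60 to 0.0024 (without ESC replicate 3) and Pou5f1 from -0.0064 (without ESC replicate 1) to 0.13. Same-numbered libraries had correlations of 0.00668, 0.186 and 0.170 between their deviations from the group means, and differently numbered ones -0.215 to 0.0836. ESC replicates 2 and 3 correlated best with their own number and ESC replicate 1 with EpiLC replicate 3. Whether the numbers pair the samples was thus not settled, and the main fit used no block. The replicate block called 6085 genes, and gave 2 scaffold partners higher and 2 lower, 1 internalization partner higher and 0 lower, and 1 kinase higher.

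The depth of 8 counts for Gja4 in EpiLCs, and of 2 for Gjb1, leaves their EpiLC levels imprecise. The mRNA level says nothing of connexin protein or of coupling between cells, which were not measured in these libraries.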
